A study of Mus musculus with 2 samples.

Results

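Accessible chromatin inside repeated DNA was examined in 2 DNase-seq libraries of mouse left cerebral cortex. A repeat peak was a peak of the more inclusive list of a library with at least 80% of its bases soft-masked in the GRCm38 sequence (the assembly that mm10 names) and its centre over 1000 bp from any GENCODE M21 transcript start, on chromosomes 1 to 19. Soft-masking is the lower-case writing by which a genome file marks interspersed and simple repeats. The rule reads sequence and position alone, and no measured value. It took 1273 of 150726 peaks in replicate 1 and 1422 of 155536 in replicate 2 (1348 ± 105.4 peaks, SD, n = 2 libraries), which fall at 2253 merged sites. The comparison class was the 57264 and 59373 distal peaks that lie as far from a start and hold no soft-masked base.

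Both libraries came from male mice of the B6CASTF1/J stock, supplied by The Jackson Laboratory and aged 14 days. These animals are F1 hybrids with a C57BL/6J and a CAST/EiJ parent. The design holds 1 group with 2 biological replicates and no second condition. Replicate 1 is labelled as 3 males and replicate 2 as 1 male, and both labels carry the same donor identifier, so the spread over libraries may not be a spread between animals. Reads were placed on the C57BL/6J reference only, although the other parental genome is CAST/EiJ. The tissue check found promoter peaks at 10 of 10 genes of cortical cell types, such as Slc17a7 and Gad1, in both libraries. Of 6 genes of other tissues none was open in both, and Alb had a promoter peak in replicate 1 alone (signal 0.275).

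DNase I cuts DNA where it is not wrapped in nucleosomes, so a peak of cuts marks accessible chromatin. Bound proteins shield short stretches inside such a peak, and these are called footprints. Much of the mouse genome consists of copies of transposable elements, which are mostly kept closed by DNA methylation and repressive histone marks. Some copies carry binding sites of host factors and are open. A class of rodent short interspersed elements is known to have spread sites of CTCF, the protein that anchors chromatin loops. Reads from near-identical copies cannot be placed at a single position, which affects how such copies appear in any short-read map. The masked sequence used here carries no family names, so no family is assigned to a member below.

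Of the 10 repeat peaks with the highest mean rank of signal, 6 are shown first because they hold the same short stretch, exactly or with up to 2 mismatches. They were picked for the stretch, a choice made after their values were seen. Capitals mark bases that lie in footprints of both libraries, and each sequence is the plus strand of mm10 over the peak of replicate 1.

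chr15:99469181-99469340: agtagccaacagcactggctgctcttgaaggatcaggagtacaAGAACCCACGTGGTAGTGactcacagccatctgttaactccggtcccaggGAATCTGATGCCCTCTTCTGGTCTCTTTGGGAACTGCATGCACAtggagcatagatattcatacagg

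chr11:73107461-73107660: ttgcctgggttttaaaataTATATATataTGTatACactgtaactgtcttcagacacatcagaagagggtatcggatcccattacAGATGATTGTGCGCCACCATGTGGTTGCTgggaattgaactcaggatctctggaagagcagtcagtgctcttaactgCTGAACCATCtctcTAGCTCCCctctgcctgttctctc

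chr7:139861561-139861720: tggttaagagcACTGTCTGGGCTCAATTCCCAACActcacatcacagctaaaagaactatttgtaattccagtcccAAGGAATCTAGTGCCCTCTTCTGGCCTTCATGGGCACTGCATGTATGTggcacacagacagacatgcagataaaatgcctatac

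chr6:142343661-142343820: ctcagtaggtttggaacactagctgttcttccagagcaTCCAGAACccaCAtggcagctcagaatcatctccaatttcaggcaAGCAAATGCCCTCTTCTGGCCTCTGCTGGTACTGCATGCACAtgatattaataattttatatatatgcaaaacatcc

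chr3:107918141-107918300: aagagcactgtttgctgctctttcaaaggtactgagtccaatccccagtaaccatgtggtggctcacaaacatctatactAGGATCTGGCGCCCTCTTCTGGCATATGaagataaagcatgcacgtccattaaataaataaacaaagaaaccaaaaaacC

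chr17:84641981-84642180: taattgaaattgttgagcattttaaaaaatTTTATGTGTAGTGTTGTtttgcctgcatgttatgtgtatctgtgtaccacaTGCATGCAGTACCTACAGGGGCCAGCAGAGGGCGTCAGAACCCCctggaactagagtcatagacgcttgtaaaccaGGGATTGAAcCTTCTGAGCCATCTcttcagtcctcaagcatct

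Among all 10, 3 hold the stretch exactly, 4 with up to 1 mismatch and 6 with up to 2. The peaks on chromosomes 15, 7 and 6 hold tgccctcttctgg, the reverse complement of ccagaagagggca, within a footprint of both libraries. The peak on chromosome 3 holds it with 1 mismatch (ccagaagagggcg on the minus strand) and that on chromosome 17 with 2 mismatches (ccagcagagggcg on the plus strand). The peak on chromosome 11 holds it with 2 mismatches (tcagaagagggta on the plus strand) outside the bases that both libraries have in footprints. The peak on chromosome 17 has 84 of its 200 bases in footprints of both libraries, the most of these 6.

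The tallest member is shown next, which lies in DNA that recurs many times in the genome and has 5 mismatches to the stretch at its closest match.

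chr9:3002041-3002220: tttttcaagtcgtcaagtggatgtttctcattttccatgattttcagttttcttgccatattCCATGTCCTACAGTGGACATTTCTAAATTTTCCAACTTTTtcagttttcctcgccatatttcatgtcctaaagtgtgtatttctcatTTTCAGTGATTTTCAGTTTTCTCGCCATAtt

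All of its words of 31 bases occur more than once in the assembled reference sequence, with a median of 35 copies there. Copies missing from the assembly are not counted, so 35 need not be the number in the animals' DNA. A word that occurs more than once in the assembled sequence is called multicopy below. A peak is called multicopy where at least 50% of its 31-base words are. In the chromosome 15 peak above, 4.62% of such words are multicopy, and in the chromosome 11 peak 65.3%.

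Soft-masked DNA held far fewer peaks than its length would give at the rate of unmasked DNA. Masked sequence made up 34.3% of the distal sequence of chromosomes 1 to 19 (769 Mb), while repeat peaks made up 1.18% of distal peaks in replicate 1 and 1.25% in replicate 2. Replicate 1 had 1.66 repeat peaks per Mb of masked distal sequence against 38.8 unmasked peaks per Mb of unmasked distal sequence. Replicate 2 had 1.85 against 40.2. The density of unmasked peaks was thus 23.4 and 21.8 times higher (log2 ratio of repeat to unmasked density -4.50 ± 0.08, SD, n = 2). This ratio depends on the 80% rule, since a distal peak with some but under 80% of its bases masked counts in neither class. By bases, which needs no such rule, 0.242% of masked distal sequence lay in peaks in replicate 1 and 0.254% in replicate 2, against 1.19% and 1.21% of unmasked distal sequence. How much of the gap reflects reads that could not be placed was not tested.

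Repeat peaks were lower and narrower than unmasked distal peaks. Signal is the authors' deposited height of a peak, its highest density of DNase I cuts scaled to sequencing depth. In replicate 1 the median signal of repeat peaks was 0.298 (95% interval 0.284 to 0.313) against 0.464 (0.464 to 0.469) for unmasked peaks. In replicate 2 it was 0.326 (0.313 to 0.344) against 0.571 (0.571 to 0.577). The intervals of both medians do not overlap in either library, and the repeat median was the lower one on 19 of 19 chromosomes in both. As a log2 ratio the difference was -0.72 ± 0.12 (SD, n = 2), which means that repeat peaks reached 0.643 and 0.570 of the unmasked median. Since the peaks of 1 library are not replicates of each other, the intervals cover counting error only. An exact paired permutation test over 2 libraries cannot give a two-sided p under 0.5. The median width was 123 and 121 bp against 171 and 164 bp.

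A larger share of repeat peaks than of unmasked peaks lay at the low end of height. A signal under 0.15 was found for 245 repeat peaks of replicate 1 (19.3%) and 195 of replicate 2 (13.7%). Among unmasked peaks it was found for 765 (1.34%) and 474 (0.798%). At the upper end, 22 repeat peaks of replicate 1 and 8 of replicate 2 reached the top decile of signal of all distal peaks.

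**Figure D1:**
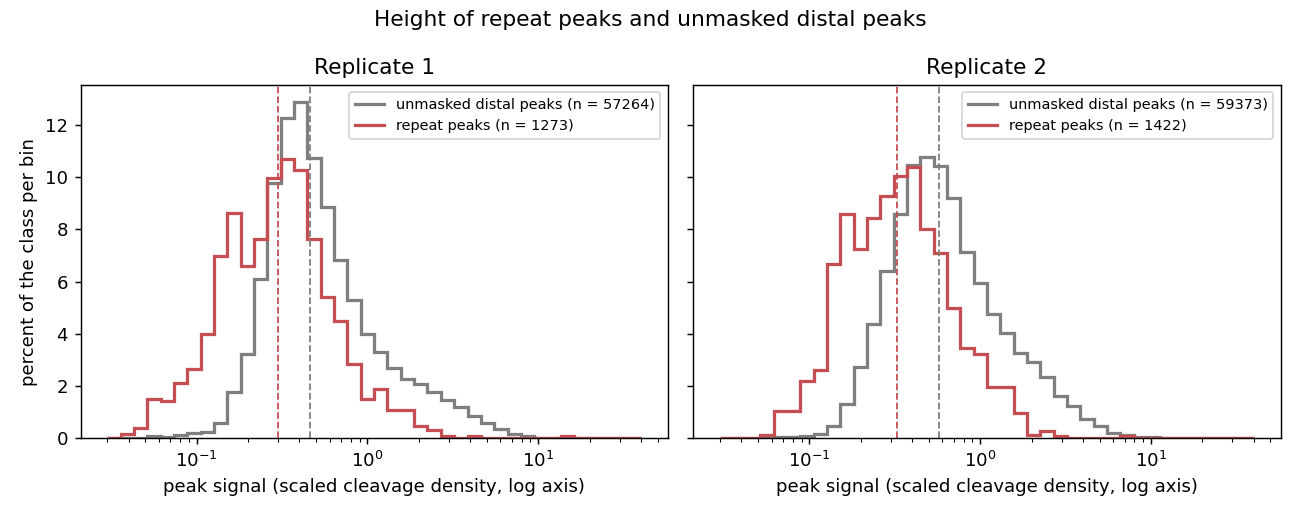
Signal of repeat peaks (red) and unmasked distal peaks (grey) in replicate 1 (left) and replicate 2 (right), as the percent of each class per bin of a log axis. Dashed lines mark the medians, 0.298 and 0.464 in replicate 1 and 0.326 and 0.571 in replicate 2. The repeat peaks have a second, lower maximum in the bin from 0.151 to 0.181 that the unmasked peaks do not show. It is shallow in replicate 2 and was not tested.

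Fewer repeat peaks than unmasked peaks were found again in the other library. A peak counted as shared where it overlapped a peak of the other library by at least 1 bp. In replicate 1, 562 of 1273 repeat peaks were shared (44.1%, Wilson 95% interval 41.4 to 46.9%), against 77.3% of all distal peaks and 74.4% of unmasked distal peaks. In replicate 2, 586 of 1422 were shared (41.2%, 38.7 to 43.8%), against 73.8% of all distal peaks and 71.7% of unmasked ones. The difference from unmasked peaks was -30.3 percentage points (Newcombe 95% interval -33.0 to -27.5) in replicate 1 and -30.5 (-33.1 to -27.9) in replicate 2. It was negative on 19 of 19 chromosomes in each library. Both values rest largely on the same overlaps, read from either side, and so are not independent of each other.

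The difference in sharing was smaller at matched height, and it kept its sign. Distal peaks of each library were divided into 10 equal classes by signal (deciles), and the lowest decile held 518 of the repeat peaks of replicate 1 and 583 of replicate 2. In this decile 17.0% and 15.8% of repeat peaks were shared, against 36.5% and 31.9% of unmasked peaks. The share of repeat peaks was the lower one in 8 of 10 deciles in replicate 1 and 7 of 10 in replicate 2. In the 2 highest deciles every repeat peak of both libraries was shared. Averaged over deciles with the repeat peaks' own numbers as weights, the difference was -14.2 points (95% interval -16.6 to -11.8) in replicate 1 and -11.5 (-13.7 to -9.29) in replicate 2. Repeat peaks sat lower than unmasked peaks even inside the lowest decile (median signal 0.152 against 0.208, and 0.172 against 0.221). With 50 classes of height in place of 10, a division chosen after the values were seen, the difference was -9.27 points (-11.6 to -6.96) and -9.01 (-11.2 to -6.87).

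**Figure D2:**
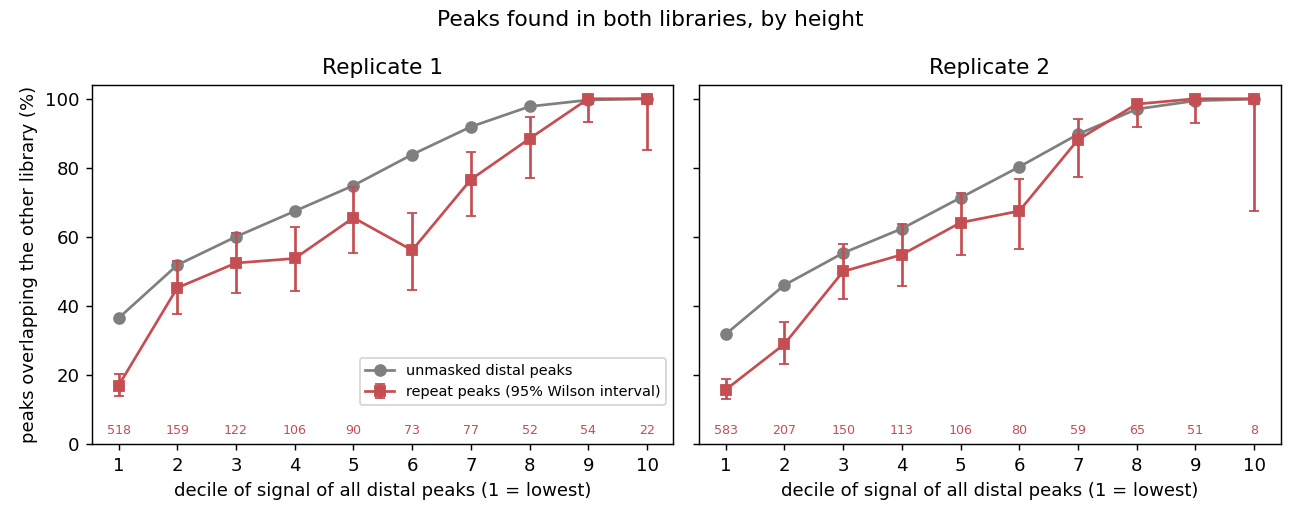
Percent of repeat peaks (red squares, 95% Wilson intervals) and unmasked distal peaks (grey circles) that overlap a peak of the other library, by decile of signal of all distal peaks, in replicate 1 (left) and replicate 2 (right). Red numbers give the repeat peaks per decile. In the lowest decile 17.0% and 15.8% of repeat peaks are shared against 36.5% and 31.9% of unmasked peaks, and all are shared in the highest 2 deciles.

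Repeat peaks without a partner rarely lay where the other library had any significant cleavage. Of the 711 unshared repeat peaks of replicate 1, 43 (6.05%) overlapped one of the other library's deposited intervals with a false discovery rate up to 0.05. Of the 836 in replicate 2 it was 40 (4.78%). For unshared unmasked peaks the shares were 11.97% and 13.5%. Unshared repeat peaks were also the lower ones, with a median signal of 0.199 and 0.240 against 0.429 and 0.522 for shared repeat peaks. In the stricter peak list of the same library, 355 repeat peaks of replicate 1 (27.9%) and 356 of replicate 2 (25.04%) had an overlapping peak, against 46.9% and 49.6% of unmasked peaks.

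Footprints were found in fewer repeat peaks than unmasked peaks, but not at matched height. At least 1 footprint was found in 825 repeat peaks of replicate 1 (64.8%, 62.1 to 67.4%), where 84.5% of all distal peaks and 81.6% of unmasked ones had one. In replicate 2 the count was 873 (61.4%, 58.8 to 63.9%), against 83.7% of all distal peaks and 81.4% of unmasked ones. The difference from unmasked peaks was -16.8 points (-19.5 to -14.2) and -19.99 (-22.6 to -17.5), negative on 19 of 19 chromosomes in both. Averaged over deciles of signal it was -1.17 points (-3.27 to 0.939) and 0.350 (-1.69 to 2.39), so the call was lost. Outside the lowest decile, repeat peaks had a footprint as often as unmasked peaks or more often in every decile of replicate 1 and in all but decile 9 of replicate 2. With 50 classes of height the sign turned, to 4.17 points more in repeat peaks (2.17 to 6.17) and 3.57 (1.63 to 5.51). Footprints covered 13.8% and 12.05% of the bases of repeat peaks, against 14.8% and 15.0% in unmasked peaks.

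**Figure D3:**
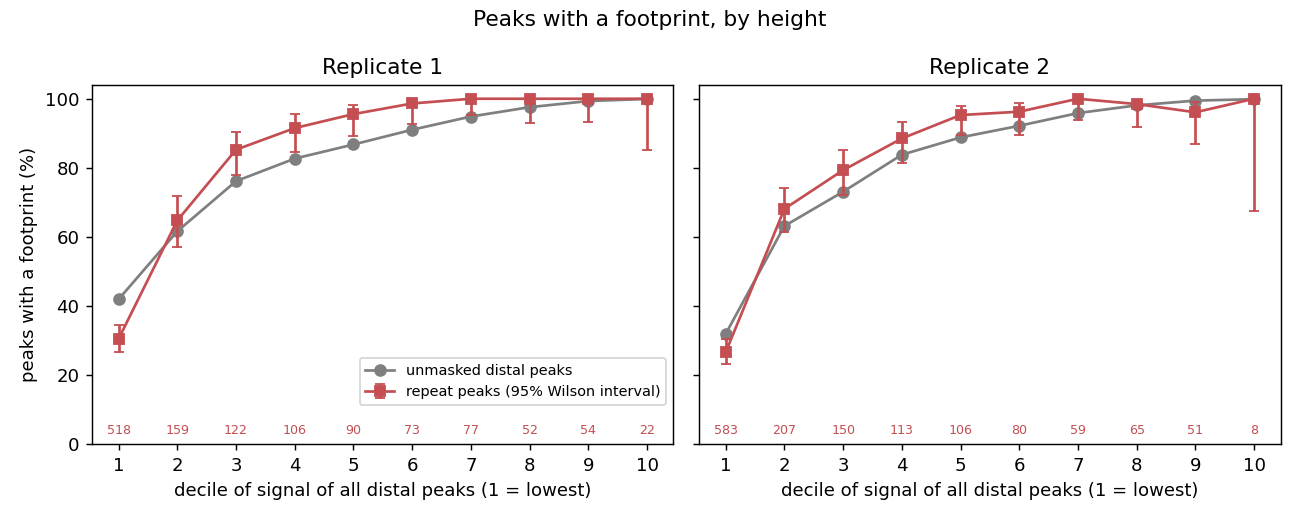
Percent of repeat peaks (red squares, 95% Wilson intervals) and unmasked distal peaks (grey circles) with at least 1 footprint, by decile of signal of all distal peaks, in replicate 1 (left) and replicate 2 (right). Red numbers give the repeat peaks per decile. The repeat peaks lie below the unmasked ones in the lowest decile of both libraries (30.5% against 42.0%, and 26.6% against 31.9%).

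The 80% threshold cut through a gradual change among mostly masked peaks. Peaks just inside it, with 80 to 85% of bases masked, had a median signal of 0.381 ± 0.026 (SD, n = 2) and 53.5 ± 4.6% of them were shared. Just outside, with 75 to under 80%, the median signal was 0.399 ± 0.035 and 56.5 ± 2.6% were shared. Fully masked repeat peaks stood at the other end. There were 453 and 499 of them, with a median signal of 0.254 ± 0.024, and 34.3 ± 2.0% were shared against 47.2 ± 2.2% of the other repeat peaks. The change did not run in 1 direction from unmasked peaks on. Distal peaks with some but under 80% of bases masked had a median signal of 0.549 and 0.657, against 0.464 and 0.571 for unmasked ones. Of these partly masked peaks 81.45% and 77.05% were shared, against 74.4% and 71.7% of unmasked ones.

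Members differed among themselves by how often their DNA recurs in the genome. Mostly multicopy peaks numbered 425 in replicate 1 and 423 in replicate 2. These were 33.6% and 30.2% of the repeat peaks long enough to hold a 31-base word, while among unmasked peaks the share was 0.465% and 0.416%. Multicopy members were lower than the mostly single-copy ones, their median signal being 0.218 against 0.336 in replicate 1 and 0.252 against 0.362 in replicate 2. They were also less often shared, 36.7% against 48.4% and 35.9% against 44.01%. Short tandem repeats of units up to 6 bases, such as strings of ca, filled at least 50% of the bases of only 19 and 29 members.

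Repeat peaks were more often intergenic than unmasked distal peaks. By the position of the centre, 55.9 ± 2.3% of them were intergenic (SD, n = 2), 42.3 ± 2.4% lay in introns and 1.78 ± 0.03% in exons. For unmasked distal peaks the shares were 43.5, 49.3 and 7.17%. How masked and unmasked distal sequence itself divides over these locations was not counted, so these shares have no background beside them. Intronic repeat peaks were taller than intergenic ones, their median signal being 0.369 in replicate 1 and 0.399 in replicate 2 against 0.237 and 0.264. The 23 and 25 exonic ones had 0.412 and 0.430. Footprints were found in 77.95% and 71.04% of intronic and in 55.3% and 53.2% of intergenic repeat peaks. Height was not matched in this comparison, so the part of height in it was not tested. The base composition of both classes was near the same (median 50% G and C in both libraries, against 50.6% and 50.7%). CpG dinucleotides, the targets of DNA methylation, were absent from 37.0 ± 1.8% of repeat peaks and from 13.7 ± 0.03% of unmasked peaks, which are wider.

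The 10 repeat peaks with the highest mean rank of signal over both libraries all had footprints in both, and 4 of them were multicopy. The tallest, chr9:3002041-3002220, had a signal of 15.2 in replicate 1 and 6.62 in replicate 2, above 99.7% of distal peaks in each. It lies in an intron of the predicted genes Gm10722 and Gm26870. A second peak of that stretch, chr9:3006800-3006920, lies in an exon of Gm11168 and Gm26870 and had 4.13 and 1.90. All 31-base words of both peaks recur in the genome, and how the authors placed reads from such DNA is not given in the sources used here. Whether the height of these peaks includes reads from other copies, assembled or not, was not tested.

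Below these 2 peaks the strongest members were of near equal deposited signal in both libraries. The intergenic peak at chr15:99469181-99469340, 5469 bp from the start of Bcdin3d (an RNA methyltransferase gene), had 3.03 and 2.88. The peak in an intron of Itgae, the integrin alpha E gene, at chr11:73107461-73107660 had 2.62 and 2.49. In an intron of the adhesion receptor gene Adgra1, chr7:139861561-139861720 had 2.52 and 2.48. Each of these values is above 94.5% of the distal peaks of its library. The median log2 ratio of all shared distal peaks was 0.278 (replicate 2 over replicate 1). Relative to it the peaks on chromosomes 15, 11 and 7 stood at -0.35, -0.35 and -0.30, toward replicate 1.

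The remaining 5 had signals between 1.69 and 2.52. The peak chr6:142343661-142343820, 1913 bp from the start of Pyroxd1, had 2.41 and 1.97. An intronic peak of Ubtd2, chr11:32498861-32499020, had 1.99 and 2.33 and was the only one of the 10 that was higher in replicate 2 by deposited signal. Relative to the median ratio of shared distal peaks it stood at -0.05 on the log2 scale. The peak in Dync2li1, a gene of the cilium motor dynein, chr17:84641981-84642180, had 1.93 and 1.83. The peak chr3:107918141-107918300, 13596 bp from the start of Gstm7, had 2.52 and 1.69. An intronic peak of the protocadherin gene Pcdh9, chr14:93214901-93215060, was fully masked and had 1.89 and 1.74.

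Words of 20 bases that recur between members were counted to see which sequences the members have in common. Each of 1780 of the 2253 sites (79.0%) shares at least 1 such word, on either strand, with another site, and chains of shared words join 1509 sites into 1 group. The 8 words found at the most sites, each taken after the sites holding the earlier ones were set aside, are given with capitals marking the 13 bases that words 3, 4 and 8 hold in common.

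word 1: cacacacacacacacacaca
word 2: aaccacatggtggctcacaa
word 3: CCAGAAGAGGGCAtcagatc
word 4: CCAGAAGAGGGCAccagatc
word 5: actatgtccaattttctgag
word 6: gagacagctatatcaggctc
word 7: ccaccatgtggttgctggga
word 8: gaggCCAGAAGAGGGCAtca

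These words differed in how tall and how reproducible their peaks were. The peaks of a word are here the repeat peaks at the merged sites that hold it, and a single peak need not hold the whole word. The tandem repeat, word 1, was at 75 sites, and the median height of its peaks was 0.317 in replicate 1 (31 peaks) and 0.350 in replicate 2 (53 peaks). Word 4 was at 46 sites, with a median signal of 0.509 and 0.584. Of its peaks 62.5% and 77.4% were shared and 93.8% and 96.8% had a footprint. Word 5 stood at the low end of height, with 0.208 and 0.252 over 15 and 20 peaks. The sites of word 6 had 10 repeat peaks of replicate 1 and 22 of replicate 2, the most uneven count among the 8. Each word covers few peaks, and the words were chosen for their number of sites, so these values are a description with no test.

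The 13-base stretch, ccagaagagggca, was followed further, a choice made after these values were seen. It was present in 182 repeat peaks of replicate 1 (14.3%) and 174 of replicate 2 (12.2%), against 0.787% and 0.692% of all distal peaks. No unmasked peak held it, which follows from the classes, since 99.95% of its 37068 copies on chromosomes 1 to 19 are soft-masked. With up to 2 mismatches it was in 33.5% and 27.8% of repeat peaks, and in 3.37% and 3.20% of unmasked peaks. Of the 22 and 8 repeat peaks in the top decile of signal of all distal peaks, 14 and 4 held it in that form.

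Repeat peaks that held the stretch were taller than the others. Their median signal was 0.507 in replicate 1 (95% interval 0.464 to 0.545) against 0.265 (0.251 to 0.279) for repeat peaks without it. In replicate 2 it was 0.553 (0.497 to 0.614) against 0.301 (0.289 to 0.313). Fewer of them were multicopy, 17.0% against 36.1% and 16.7% against 31.6%, and the part of this in the difference was not tested. Footprints were found in 172 of 182 (94.5%) against 59.9%, and in 159 of 174 (91.4%) against 57.2%. Averaged over deciles of signal the footprint share was still higher, by 6.16 points (2.98 to 9.34) and 9.13 (4.84 to 13.4). They were also more often shared, 63.2% against 40.97% in replicate 1 and 71.8% against 36.9% in replicate 2. At matched height that difference was -2.80 points (-9.95 to 4.36) in replicate 1 and 11.8 (5.40 to 18.2) in replicate 2, so it passed in replicate 2 alone.

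The footprints lay over the stretch itself. Averaged over its 13 bases, 71.4% of the 182 peaks of replicate 1 and 64.9% of the 174 of replicate 2 had a footprint on a given base, while 40 to 60 bp away the mean was 9.62% and 8.57%. A single run of footprint bases covered the whole stretch in 52.2% (45.0 to 59.3%) and 43.1% (36.0 to 50.5%) of peaks. At 20 bp from the centre 45.1% and 37.4% of peaks had a footprint on the 5′ side, and 5.49% and 3.45% on the 3′ side. At 54 bp the order was the other way, with 21.4% and 23.6% on the 3′ side and 3.85% and 3.45% on the 5′ side. No factor's binding was measured, and DNase I has a sequence preference of its own, whose part in this profile was not tested.

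**Figure D4:**
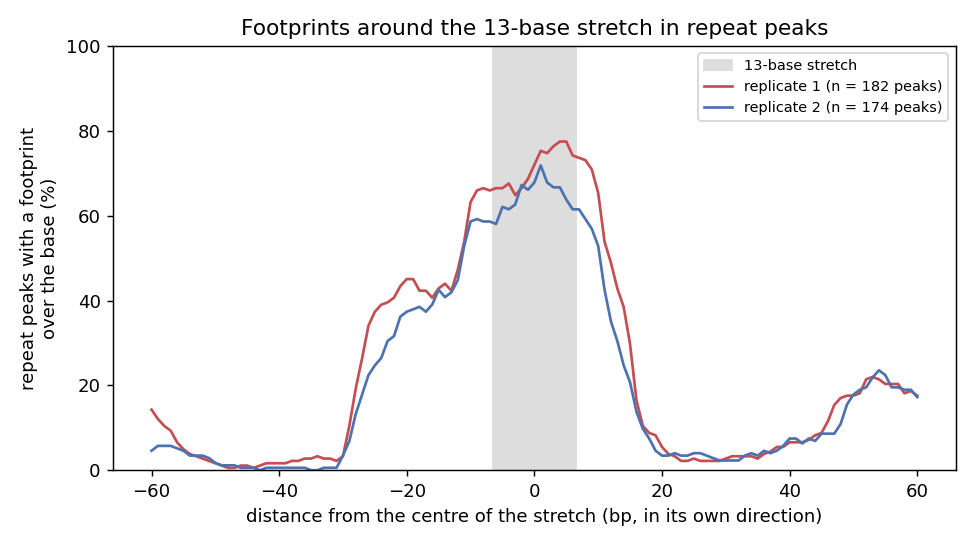
Percent of repeat peaks that hold the 13-base stretch and have a footprint over each base, by distance from the centre of the stretch in its own direction, for replicate 1 (red, 182 peaks) and replicate 2 (blue, 174 peaks). The grey band is the stretch, where the mean is 71.4% and 64.9%, against 9.62% and 8.57% at 40 to 60 bp.

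Most copies of the stretch in the genome were not in a peak. Of the 37068 copies 984 (2.65%, 2.50 to 2.82%) lay in a distal peak of either library, and distal peaks cover 1.06% of the sequence of these chromosomes. Nearly all copies are soft-masked, and masked sequence lies in peaks less often than that. By library, 2.30% of copies in replicate 1 and 2.12% in replicate 2 lay in distal peaks. Of all masked distal sequence 0.242% and 0.254% did. Where the 31 bases centred on the stretch occur once on these chromosomes, the share was 6.32% (5.91 to 6.76%) of 12526 copies. Where they occur more than once it was 0.782% (0.680 to 0.900%) of 24542 copies, or 0.599% in replicate 1 and 0.619% in replicate 2. Copies with unique surroundings can be read more completely than the others, and the part that this plays was not tested.

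The share of copies in peaks also varied with the bases beside the stretch. The words were chosen for the number of peak sites that hold them, so a word with few copies is among them only where many of its copies lie in peaks, and these shares are a description. Words 3 and 4 differ by T14C, counted from 1 at the 5′ end of word 3. Word 3 had 15177 copies, of which 1.17% (1.01 to 1.36%) lay in a distal peak, and word 4 had 1170 copies, of which 6.496% (5.22 to 8.06%) did. Among copies with unique surroundings the shares were 4.86% (3.95 to 5.95%) of 1792 and 10.1% (7.63 to 13.2%) of 457, again with the higher share for word 4. Word 8 had 1003 copies, 11.5% of which (9.64 to 13.6%) lay in a distal peak. Its share was about the same for copies with unique surroundings (11.2%) and with recurring ones (11.97%).

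Short consensus words of known factors were counted on both strands in the 100 bases at the centre of each peak, beside the same count in windows of 100 bases of masked and of unmasked distal sequence. The E-box CAGATG, bound by NeuroD-type factors of the neural lineage, was in 18.8% and 18.99% of repeat peaks, 15.5% and 16.1% of unmasked peaks and 8.56% of masked and 8.49% of unmasked windows. The word AAGATGGC of YY1, a widely expressed zinc finger factor, was in 2.44% and 2.46% of repeat peaks against 0.683% and 0.707% of unmasked peaks. Masked windows held it at 2.13% and unmasked windows at 0.533%, a fold of 1.15 and 1.30 over the windows of each class.

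Words of several other factors were rarer in repeat peaks than in unmasked ones. The AP-1 word TGANTCA, read by Fos and Jun, was in 2.98% and 4.15% of repeat peaks against 6.55% and 7.17%, with 1.49% of masked and 3.62% of unmasked windows. The E-box CAGCTG was in 6.05% and 6.12% against 12.7% and 13.03%, with 2.19% and 4.91% of windows. Relative to the windows of their own class these words were not scarcer in repeat peaks: the mean share was 2.40-fold that of masked windows for AP-1 and 2.78-fold for CAGCTG, where unmasked peaks had 1.89-fold and 2.63-fold that of unmasked windows. The exact CTCF core AGGTGGCA was in 0.471% and 0.492% against 2.33% and 2.25%, with 0.157% of masked and 0.517% of unmasked windows (3.06-fold and 4.43-fold). The 13-base stretch does not contain this exact word. Looser forms of the CTCF site were not counted, so these shares do not cover all CTCF sites. Whether the stretch is such a form was not tested. The words TGACGTCA of CREB and GCGTGGGCG of the Egr family were in 0 repeat peaks of either library, where masked windows held them at 0.0539% and 0.000416%, and unmasked windows at 0.0683% and 0.00680%.

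Of the other 9 words examined 6 were also rarer in repeat peaks than in unmasked peaks of both libraries. The second CTCF core AGGGGGCG was in 0.628% and 0.774% of repeat peaks against 1.68% and 1.497% of unmasked peaks, with 0.0376% of masked and 0.0849% of unmasked windows, so that both classes stood near the same fold over their own windows (18.6 and 18.7). The word TTGGCA of nuclear factor I, a family active in the developing cortex, was in 6.13% and 8.79% against 13.04% and 14.4%, which is 2.08-fold masked and 2.28-fold unmasked windows. The word GTTGCCAT of the RFX factors was in 0.707% and 0.422% against 1.33% and 1.38%, and CTAAAAATA of the Mef2 family was in 2 repeat peaks of each library (0.157% and 0.141%) against 0.332% and 0.340%. Sox and POU words were scarcer in repeat peaks than in masked windows. ACAATGG of the Sox family was in 0.864% and 0.914% of repeat peaks, 1.12% and 1.07% of unmasked peaks, 2.55% of masked windows and 1.67% of unmasked windows. ATGCAAAT of the POU factors was in 0.236% and 0.281%, 0.767% and 0.724%, 1.36% and 0.662%. The nuclear receptor word AGGTCA was at like shares in both classes (3.30% and 3.52% against 3.39% and 3.44%). The GC box GGGGCGGGG of Sp and Klf factors was in 6 and 4 repeat peaks (0.471% and 0.281% against 0.461% and 0.475%). ACCGGAAG of the ETS family was in 4 repeat peaks of each library (0.314% and 0.281% against 0.169% and 0.163%).

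Signals of shared repeat peaks went together between libraries, with a slightly wider spread than those of unmasked peaks. Each of the 562 shared repeat peaks of replicate 1 was paired with its strongest partner in replicate 2, which for 440 was itself a repeat peak. The SD of the log2 ratio of signals was 0.49 for repeat peaks and 0.45 for unmasked distal peaks. Relative to the median ratio of all shared distal peaks, 10 repeat peaks (1.78%) were over 2-fold higher in replicate 2, where 0.925% of all shared distal peaks were. On the other side 15 (2.67%) were over 2-fold lower in replicate 2, against 1.49%. With 1 library on each side these ratios have no replicate check.

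**Figure D5:**
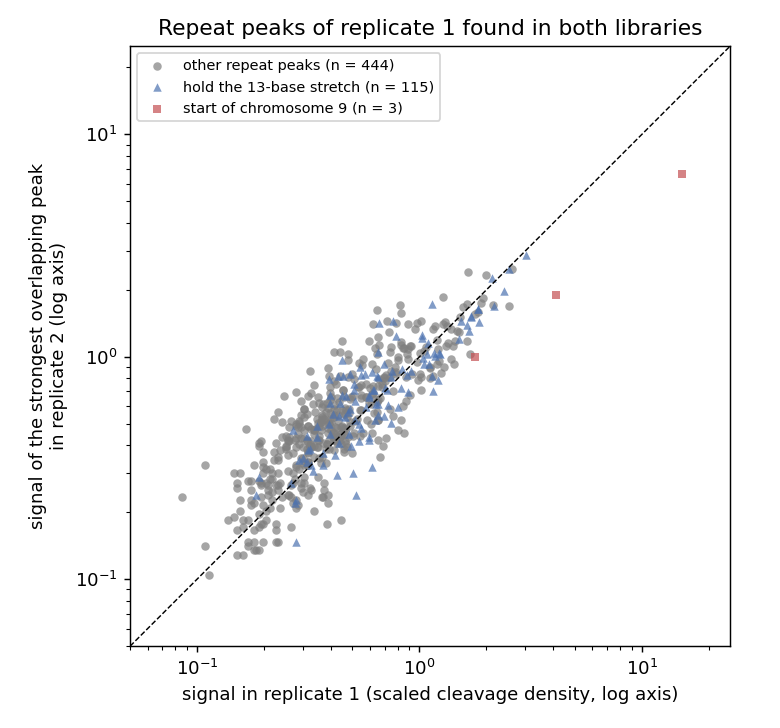
Signal of the 562 repeat peaks of replicate 1 found in both libraries, against that of the strongest overlapping peak of replicate 2, on log axes with the line of equality. Triangles hold the 13-base stretch (115 peaks), and the 3 squares are the peaks at the start of chromosome 9, all lower in replicate 2.

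Single pairs are named from the 440 whose partner was itself a repeat peak and the other 122, whose partner was under 80% masked, were not ranked. Among the 306 of these above the median in both libraries, 3 of the 5 with the largest ratio toward replicate 1 lie at the start of the assembled sequence of chromosome 9. Relative to the median, chr9:3002041-3002220 stood at -1.48 on the log2 scale (replicate 2 over replicate 1), chr9:3006800-3006920 at -1.40 and chr9:3022451-3022560 at -1.11 (signal 1.78 and 1.00). All of their 31-base words are multicopy. The others were an intronic peak of Sfi1, a centrin-binding protein gene, with 0.852 and 0.454, and an intergenic peak 37112 bp from the start of Sgpp1 with 0.805 and 0.467.

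Of the same 306 pairs, the 5 with the largest ratio toward replicate 2 lay on 4 chromosomes. The tallest of them, chr1:107034341-107034540, 17862 bp from the start of Serpinb3a, had 0.644 in replicate 1 and 1.63 in replicate 2. It holds word 5 on the minus strand and is printed here with the intergenic peak of chromosome 17, which had 0.412 and 1.05. Capitals again mark bases in footprints of both libraries.

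chr1:107034341-107034540: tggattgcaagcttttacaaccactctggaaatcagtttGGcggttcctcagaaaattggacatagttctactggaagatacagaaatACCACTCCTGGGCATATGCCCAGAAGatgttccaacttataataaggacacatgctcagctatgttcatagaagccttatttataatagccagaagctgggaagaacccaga

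chr17:94255741-94255960: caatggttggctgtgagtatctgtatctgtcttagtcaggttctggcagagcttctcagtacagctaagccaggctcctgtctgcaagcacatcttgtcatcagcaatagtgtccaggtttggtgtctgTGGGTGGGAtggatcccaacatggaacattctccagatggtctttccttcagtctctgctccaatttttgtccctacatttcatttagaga

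The other 3 lay in an intron of Fam81b (0.322 and 0.866), 15980 bp from the start of the thrombospondin gene Thbs4 (0.450 and 1.17) and in an intron of Sv2b, a synaptic vesicle protein gene (0.388 and 0.891). Word 6 itself was within 5 shared repeat peaks of replicate 1, and all 5 had a ratio above the median of shared distal peaks (median 0.38 on the log2 scale). Shared peaks at sites of word 6 that do not hold the word themselves are not among the 5, since 80% of the 10 repeat peaks of replicate 1 at its sites were shared. This was seen after the ratios were known and rests on 5 peaks.

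Few genes held more than 1 repeat peak. Of 20807 protein-coding genes on these chromosomes 442 (2.12%) had a repeat peak in the gene body in replicate 1 and 522 (2.51%) in replicate 2, and 415 and 477 of them had exactly 1. By the mean over libraries Gm20388, a 4435 kb gene model on chromosome 8, came first, with 5 and 6 repeat peaks among 446 and 437 distal peaks. The ubiquitin ligase gene Rnf169 had 0 in replicate 1 and 7 in replicate 2, and the methyltransferase-like gene Mettl24 had 5 and 0. At both genes the count of all distal peaks differed in the same direction, with 3 and 33 at Rnf169 and 43 and 15 at Mettl24. Klhl1, a kelch-like gene, had 3 and 2 repeat peaks among only 8 and 10 distal peaks, and the potassium channel gene Kcnq5 had 2 and 2 among 20 and 22. The other 5 of the 10 genes with the most were Mtus2 (4 and 1), Sfi1 (3 and 2), the receptor phosphatase gene Ptprn2 (0 and 4), Lmntd1 (1 and 3) and Naaladl2 (1 and 3).

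Counts of repeat peaks near the listed genes were small, and no list was tested against the share over all genes. Within gene bodies and 10 kb on each side, 16 excitatory neuron genes had 1 repeat peak among 239 distal peaks in replicate 1 (0.418%) and 4 among 285 in replicate 2 (1.40%), 2 of them at the NMDA receptor gene Grin2a and 1 at Grin2b. The 16 genes of synapse and adhesion had 6 among 893 (0.672%) and 9 among 994 (0.905%), with 2 and 1 each at the scaffold gene Magi2 and the receptor phosphatase gene Ptprd. Over all protein-coding genes the share was 1.13% and 1.20%. The lists of inhibitory neuron genes, activity-regulated genes and microglia genes held 0 in both libraries, among 85 and 86, 75 and 71, and 64 and 72 distal peaks. The astrocyte list had 1 (1.11%, at Fgfr3) and 0, and the oligodendrocyte lineage list 0 and 1 (1.45%, at Cspg4). The list of endothelial and mural cell genes had 1 and 1 (1.18% and 1.15%, at Flt1 and at Tek), and the list of other tissues 1 (5.88%, at Myh7) and 0.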

How the data were processed

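Each of the 2 DNase-seq libraries had 2 peak lists, footprints and intervals of significant cleavage, which the authors made per library from alignments to mm10, per the file notes, without pooling. The aligner and the peak and footprint callers were not given in the sources used here. The signal of a peak, deposited by the authors, is its highest cleavage density scaled to sequencing depth, by a formula not given in the sources used here. The interval file deposited by the authors lists a q-value (false discovery rate) up to 0.05, and only the positions were used. The deposited footprint score was 0.01 in every row of both files and was not used. No total read count was used, so depth is unknown.

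The larger peak list of each library was used, and the members and lists were chosen with earlier results of these data known. Masking is the lower case of the NCBI RefSeq GRCm38.p6 sequence, masked by a program not given in the sources used here; chromosome lengths were checked against the peak positions. Shares have Wilson and differences Newcombe 95% intervals, and medians have order-statistic intervals; all cover counting error only. A difference was called where both libraries passed with the same sign. Named were the 10 shared members with the highest mean rank, of those that are members in both libraries and above the median the 5 with the largest ratio each way, the 10 coding genes with the most members, the 2 of each gene list with the most, 8 words of 20 bases and 16 factor words. The 13-base stretch, the signal limit of 0.15, the 50 height classes and the uneven windows were chosen after the values were seen.

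On simulated peaks in the numbers of replicate 1 (1273 and 57264), 94% of intervals over 100 runs held a true difference of 20 points. Where simulated sharing depended on the decile of height alone, 95% of intervals over deciles held 0. Sharing was constant inside a decile there, so this simulation cannot show how far deciles remove height in the real peaks. The tools were numba 0.67.0, matplotlib 3.10.9, SciPy 1.17.1, pandas 2.3.3, NumPy 2.4.6 and Python 3.11.15.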

Additional observations from a re-analysis of the deposited data

How the results depend on the processing

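Sharing stayed called in 16 of 16 alternatives and height in 14 of 14, all with the main sign. The difference in sharing ranged from -38.7 to -9.14 percentage points and that in height from -1.16 to -0.38 on the log2 scale. The footprint difference kept its call in 14 of 16 alternatives. It was -0.408 points as a mean over deciles of signal, where it was not called, and 3.87 points, of the opposite sign, as a mean over 50ths, added after the values were seen; by construction, finer classes compare peaks of nearer height. The number of repeat peaks was 4482 with at least 50% of bases masked, 476 with 100% and 462 in the stricter list. The density ratio was -2.76, -6.00 and -5.20 there (log2), and -4.74 among peaks with a signal of at least 0.15; these follow from how many peaks each rule keeps. Without replicate 1 and without replicate 2 the values ran from 1273 to 1422 repeat peaks, -30.5 to -30.3 points of sharing, -0.81 to -0.64 log2 of height, -19.99 to -16.8 points of footprints and -4.55 to -4.44 log2 of density. Depth is unknown, so how far it limits sharing among the lowest peaks was not tested.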

Other observations

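Some windows of the genome held many more distal peaks in 1 library than in the other, and repeat peaks were among them. Windows of 200 kb with at least 30 distal peaks in a library and at least 2 times as many as in the other numbered 33, of which 18 had more in replicate 1 and 15 in replicate 2. They held 0.974% and 0.778% of distal peaks and 3.14% and 1.90% of repeat peaks (40 and 27). The repeat peaks inside them had a median signal of 0.0947 and 0.141, where those elsewhere had 0.308 and 0.332. Only 5.00% and 11.1% of those inside were shared, against 45.4% and 41.8% of those elsewhere. Low sharing inside follows in part from the choice of windows by unequal numbers of peaks. Unmasked peaks were also less often shared there, 47.25% and 55.3% inside against 74.6% and 71.8% elsewhere. Without these windows the difference in sharing from unmasked peaks was -29.2 points in replicate 1 and -30.0 in replicate 2.

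The window with the most repeat peaks lay on chromosome 13, from 92800001 to 93000000, with 64 distal peaks in replicate 1 and 11 in replicate 2. It held 11 repeat peaks in replicate 1, 1 of them shared, with a median signal of 0.0758, and 1 in replicate 2. The window on chromosome 7 from 99800001 to 100000000, which holds Rnf169, had 12 and 45 distal peaks. It had 0 repeat peaks in replicate 1 and 7 in replicate 2, with a median signal of 0.129 and none shared. On chromosome 10, from 40600001 to 40800000, which holds most of Mettl24, there were 52 and 22 distal peaks, with 5 repeat peaks in replicate 1 and 0 in replicate 2.

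Weak repeat peaks were common outside these windows as well. Of the 245 repeat peaks of replicate 1 with a signal under 0.15, 35 lay in them (14.3%), and of the 195 of replicate 2 it was 15 (7.69%). The megabase with the most repeat peaks in replicate 1 was on chromosome 8, between 20 and 21 Mb, with 14 in replicate 1 and 8 in replicate 2. There 8 of the 14 and 8 of the 8 were shared, and the median share of multicopy words was 74.0% and 82.1%.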
